A study of Danio rerio with 4 samples.

Results

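Heat shock proteins and DnaJ chaperones were examined in the regenerating caudal fin of adult zebrafish (*Danio rerio*). The set was chosen by gene symbol. It takes the Hsp90, Hsp70, Hsp110, small heat shock protein and mitochondrial chaperonin genes, the DnaJ classes A, B and C, the Bag genes and the heat shock factors *hsf1* and HSF2. Of 31901 counted genes, 97 carry such a symbol. Symbols in capitals are those of human orthologues, as the gene-name table lists them, and the Ensembl ID is printed where several genes share a symbol.

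RNA was sequenced from the fin tip 96 hours after amputation in fish heterozygous for *longfin*, a dominant mutation known for overgrown fins, and in homozygous wildtype clutchmates. Fish of both genotypes carried the sp7:eGFP transgene, whose promoter is active in osteoblasts, and the tissue was the part beyond the GFP-positive cells. There were 2 libraries per genotype, each from the pooled tissue of 4 fins. Whether the pools of a genotype came from different clutches or collection days is not stated, and the spread behind each p-value is that between these samples and may be technical.

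Heat shock proteins are molecular chaperones that bind unfolded stretches of other proteins, prevent aggregation and assist folding. Hsp70 is the hub of the system. DnaJ proteins deliver clients to it and stimulate its ATPase, nucleotide exchange factors of the Hsp110 and Bag families release the clients, and Hsp90 takes over late folding steps. Under heat or proteotoxic stress Hsf1 binds heat shock elements and switches on a subset of these genes, while other members are expressed in all cells, and separate members work in the endoplasmic reticulum (ER) and in mitochondria.

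Libraries held 19428186 to 23157979 reads in genes. The counting program HTSeq put 28.7 to 41.9% of its tally, genes and unassigned classes together, in the class of alignments that were not unique. Values are given as CPM, read counts scaled to library size with TMM factors, and are not corrected for transcript length, so they are shares of reads and not transcript numbers. Fold changes are log2 of longfin over wildtype from edgeR's quasi-likelihood fit, with 95% intervals from the same fit. Blastema genes were present (*msx2b* at 148 to 339 CPM), as was *krt5* of the basal epidermis. Osteoblast genes were present too in tissue described as GFP-negative, with SP7 at 45.4 to 57.4 CPM and COL10A1 (ENSDARG00000054753) at 1875 to 2693 CPM. Of the 8 genes of the osteoblast list, 7 passed the filter on low counts, while *bglap* had 0 reads in every library. Muscle actin and myosin genes (ACTA1, *actc1b*, *myhz2*) had 6 reads or fewer in every library, while TNNT3 (ENSDARG00000068457) of the same muscle list had 526 to 705. The neutrophil gene *lyz* had 0 reads, while *cd74a* and *ptprc* of the leukocyte list had 8647 to 12578 and 140 to 227 reads. In bulk tissue fewer cells of a type and less RNA per cell cannot be told apart.

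No member was called between genotypes in edgeR without a replicate term. Of the 97 genes, 83 passed the filter on low counts, and 0 of these 83 passed an adjusted p of 0.05 in edgeR, where 0.403% of all 18366 tested genes passed. DESeq2, which called 1.58% of all tested genes, and limma voom also called 0 of them. DESeq2 gave no adjusted p for *hsp70.1*, *hsp70.3*, HSPA2 and *hspb6*, so it could not call these genes. At an unadjusted p under 0.05 in edgeR, 2 of the 83 were higher and 1 was lower, against 3.65% and 5.82% of all tested genes. In either direction 3 of the 83 stood against 9.47%. These were smaller shares than those of all genes, and the difference in shares was not tested. Fitted fold changes were below 0 for 42 members, beside 50.3% of all tested genes. The median fold change of the tested members was -0.0005, beside -0.0015 for all tested genes, and the median size of the fold change was 0.12 beside 0.15. The tested members also had a higher median level, 17.4 CPM beside 12.1 CPM, and the part of read level in these sizes was not tested. Shares of all genes at an unadjusted p were not taken with a library left out. The member counts that follow thus have no such share beside them. The 2 higher members became 0 with longfin replicate 1 left out and 1 with wildtype replicate 1 left out, and the 1 lower member became 3 without wildtype replicate 2. Without wildtype replicate 2 the calls over all genes went from 74 to 163, and they went to 3 and 1 without longfin heterozygous replicates 1 and 2.

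The intervals give the range of fold changes compatible with the fit of each gene. They are not adjusted for the number of genes and are not limits of detection. For 40 of the 83 tested members (48.2%) the whole 95% interval lay between -0.5 and 0.5, and the same held for 41.3% of all tested genes, whose median CPM was lower. Both longfin libraries lay above both wildtype libraries in 19 members and below them in 15, where the shares over all tested genes were 20.0% and 19.8%. Over the 78 members with a mean of at least 1 CPM, the ratio of the highest to the lowest library had a median of 1.23. The 14 members that were not tested had at most 35 reads summed over the 4 libraries, and 4 of them (DNAJC22, HSPB3, *hspb9* and *hspb15*) had none.

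**Figure D1:**
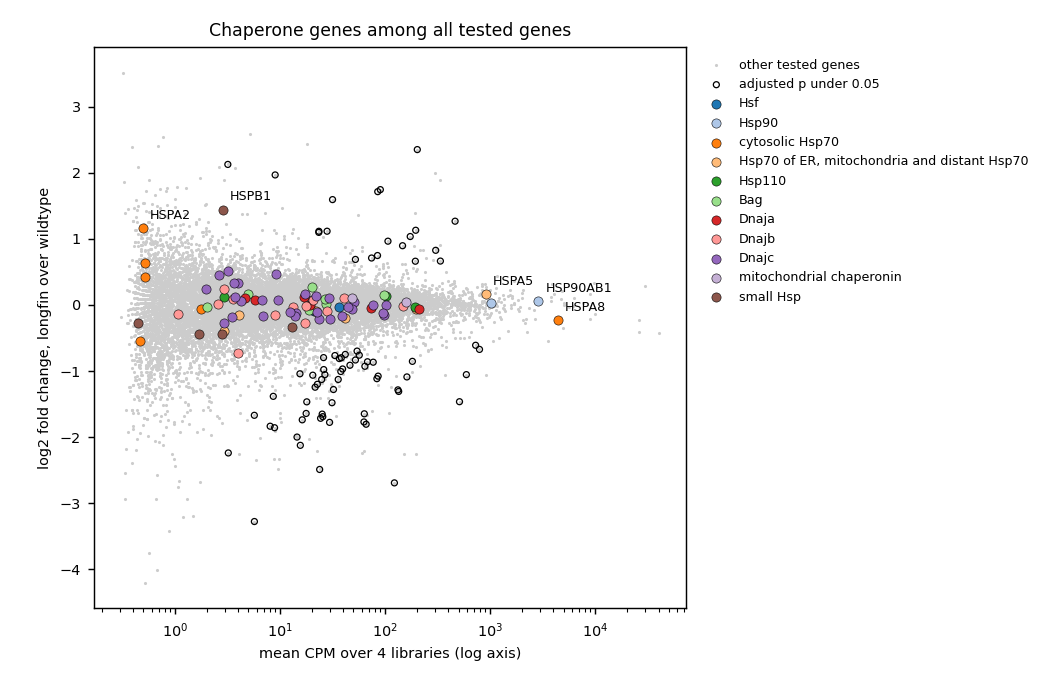
Log2 fold change of longfin over wildtype against mean CPM over the 4 libraries on a log axis. Each coloured point is 1 of the 83 tested chaperone genes, grey points are the other tested genes and open circles mark the 74 genes with an adjusted p under 0.05; no coloured point carries a circle, and HSPB1 (1.44) and HSPA2 (1.17) are the highest coloured points.

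The regulators of the response came first. The master heat shock factor gene *hsf1* had 20.8 and 19.9 CPM in longfin heterozygous replicates 1 and 2 and 21.5 and 22.0 CPM in wildtype replicates 1 and 2. Its longfin libraries lay just below the wildtype ones, with a fold change of -0.10 (95% interval -0.36 to 0.17) and an edgeR adjusted p of 0.856. HSF2, a related factor known from development and differentiation, had 46.2 and 25.7 CPM in longfin replicates 1 and 2 and 49.3 and 24.5 CPM in wildtype replicates 1 and 2. Its level differed between the libraries of each genotype, with replicate 1 high in both, and the genotypes overlapped. The HSF2 fold change was -0.03, with a wide interval of -1.34 to 1.28. Its sign turned with 1 library left out (0.33 without longfin replicate 2, 0.55 without wildtype replicate 1), and also with upper quartile scaling and with library size only, to 0.002 and 0.02.

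Stress-inducible cytosolic Hsp70 genes, the classical targets of Hsf1, were near the lowest measurable level in every library. *hsp70.1* had 16 and 10 reads in the longfin and 9 and 8 in the wildtype libraries, and *hsp70.3* had 11 and 5 against 10 and 14. The lens-linked copy *hsp70l* had 10 and 5 reads against 10 and 10, and *hspa1b* had 6 and 3 against 4 and 1. Summed, these 4 genes had 43 and 23 reads in longfin and 33 and 33 in wildtype libraries, which was 1.94, 1.18, 1.78 and 1.38 CPM and at most 0.0168% of the CPM of all 97 members. *hsp70.1* and *hsp70.3* are close copies, and in RefSeq's gene order of the GRCz12tu assembly both sit beside *hsp70.2*, so reads shared between copies may have been left out of the counts. The fold changes of 0.63 (*hsp70.1*, interval -0.64 to 1.90) and -0.55 (*hsp70.3*, interval -1.89 to 0.78) had opposite signs, and neither gene passed (edgeR adjusted p of 0.789 and 0.832). HSPA2, an Hsp70 known in mammals from the testis, had 17 and 12 reads in longfin and 4 and 9 in wildtype libraries, a fold change of 1.17 with an edgeR adjusted p of 0.595.

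The constitutive Hsp70 gene HSPA8 (ENSDARG00000068992) took more reads than any other member. It had 4117 and 3946.5 CPM in the longfin libraries and 5150 and 4304 CPM in the wildtype libraries. The genotypes did not overlap, and wildtype replicate 1 stood above the rest. The fold change was -0.23 (interval -0.49 to 0.03) with an edgeR adjusted p of 0.600, and without wildtype replicate 1 it was -0.09. The other gene with that symbol, ENSDARG00000037403, had 6 to 15 reads per library, and *hsc70* had 23 to 52. *hsc70* read 1.04 and 2.47 CPM in longfin and 1.35 and 2.17 CPM in wildtype libraries, so its replicate 2 library was the higher one in each genotype. Whether reads shared among these Hsp70 copies lowered the counts of the rare ones was not tested. Most markers of the superficial epidermis had values on the same side as HSPA8. Of 10 such genes, 7 had both longfin libraries below both wildtype libraries (19.8% of all tested genes) and 1 (*pkp3a*) passed as lower (0.403% of all tested genes called). *cldne* (0.09) and *cldnf* (0.23) had fold changes on the other side and *anxa1c* stood at -0.03. The summed level of the 10 genes was 9015 and 9755 CPM in longfin and 11659 and 12200 CPM in wildtype libraries. Other lists held such genes too. Both longfin libraries lay below both wildtype libraries in 3 of 5 tested genes of the leukocyte list, and above in 0. In the basal epidermis list this held for 2 of 6, with 1 above. The leukocyte list summed to 457 and 472 CPM in longfin and 670 and 553 CPM in wildtype libraries. Of this *cd74a* gave 435 and 445 against 647 and 525 CPM. The part of any of these markers in the HSPA8 values was not tested.

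None of the Hsp90 genes passed. HSP90AB1, the constitutive cytosolic form, had 2869 and 2995 CPM in longfin and 2858 and 2774.5 CPM in wildtype libraries. Both longfin libraries were just above the wildtype ones. The fold change was 0.06 (interval -0.14 to 0.26) and the edgeR adjusted p 0.892. HSP90B1, the Hsp90 of the ER, had 993.5 and 1057 CPM in longfin and 952 and 1051 CPM in wildtype libraries, a fold change of 0.03 (interval -0.18 to 0.25). HSP90AA1, whose human orthologue is the stress-inducible cytosolic form, had 26.5 and 14.5 CPM in longfin and 24.6 and 14.7 CPM in wildtype libraries. As for HSF2, replicate 1 was the higher library in both genotypes, and the fold change was 0.07 with an interval of -0.93 to 1.08. *hsp90aa1.1*, which in zebrafish serves myosin folding in muscle, had 3 and 0 reads in longfin and 0 and 2 in wildtype libraries. In RefSeq's GRCz12tu gene order it sits beside *hsp90aa1.2*. Whether reads shared between copies were left out of its counts was not tested. The abundant HSPA8, HSP90AB1, HSP90B1 and HSPA5 together made up 77.9 to 79.1% of the CPM of all members in each library.

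**Figure D2:**
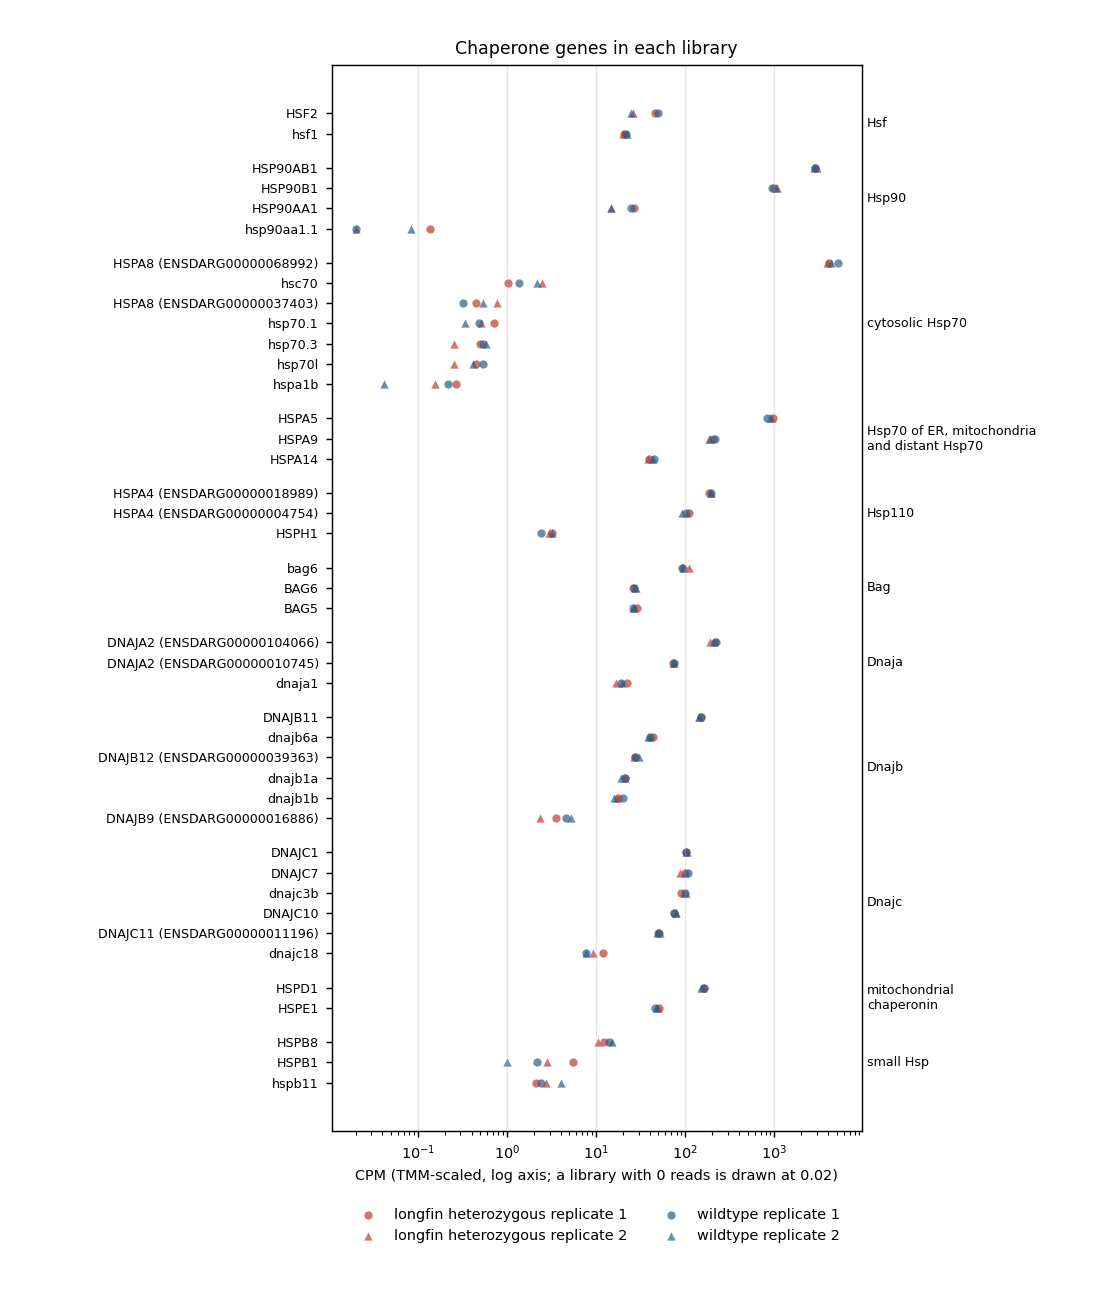
CPM on a log axis of 42 chaperone genes in each of the 4 libraries, grouped by class. Red marks longfin heterozygous and blue wildtype, circles replicate 1 and triangles replicate 2. The symbols of most genes lie on top of each other. HSF2 and HSP90AA1 separate circles from triangles (46.2 and 49.3 against 25.7 and 24.5 CPM for HSF2). So does *hsc70* in the other direction, with circles at 1.04 and 1.35 and triangles at 2.47 and 2.17 CPM.

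The Hsp70 of the ER, HSPA5 (BiP), binds nascent secretory proteins and is a marker of the unfolded protein response. It had 974 and 953 CPM in longfin and 824 and 889.6 CPM in wildtype libraries. Both longfin libraries were higher, by a fold change of 0.17 (interval -0.03 to 0.37) with an edgeR adjusted p of 0.612. HSPA9, the mitochondrial Hsp70, overlapped between genotypes, with 203 and 185 CPM against 217 and 188 CPM. HSPA14, which binds the ribosome, had 38.9 and 37.8 CPM in longfin and 44.3 and 43.8 CPM in wildtype libraries. Its libraries agreed closely within a genotype and did not overlap between them, and the fold change of -0.20 (interval -0.42 to 0.02) had an edgeR adjusted p of 0.585. DNAJC2, the J protein known in mammals to pair with HSPA14 at the ribosome, stood on the other side, with 30.5 and 29.8 CPM in longfin and 28.3 and 27.5 CPM in wildtype libraries and a fold change of 0.11. HSPA13, HSPA12A and HSPA12B, the more distant Hsp70 genes, had fold changes of -0.09, -0.15 and -0.39. DNAJC2 and these distant Hsp70 genes were picked outside the rule for named genes.

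Nucleotide exchange factors release clients from Hsp70. The Hsp110 gene HSPA4 (ENSDARG00000018989) had 187 and 193 CPM in longfin and 193 and 195 CPM in wildtype libraries, and its fold change was -0.03 (interval -0.22 to 0.16). The other HSPA4 gene, ENSDARG00000004754, had 109.5 and 103 CPM against 101 and 91.9 CPM, a fold change of 0.14. HSPH1, a strongly heat-inducible Hsp110 in mammals, was at 3.20 and 2.93 CPM against 2.38 and 3.21 CPM. It thus stayed far below the HSPA4 genes in its share of reads. Among the Bag genes, *bag6*, which acts in the delivery of tail-anchored proteins to the ER, had 95.4 and 111 CPM in longfin and 91.3 and 94.5 CPM in wildtype libraries. The gene listed as BAG6 had 26.1 and 28.3 against 26.5 and 27.5 CPM. BAG5 had 28.7 and 26.5 CPM against 25.7 and 25.9 CPM, with longfin above wildtype by a fold change of 0.10 (interval -0.15 to 0.35). All 7 Bag genes were tested. Their fold changes ran from -0.07 (*bag1*) to 0.27 (BAG4), and the stress-inducible BAG3 stood at 0.16 with 3.89 to 5.71 CPM.

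DnaJ proteins of class A work with Hsp70 in the cytosol and, for DNAJA3, in mitochondria. DNAJA2 (ENSDARG00000104066) had 221 and 189.6 CPM in longfin and 218 and 210 CPM in wildtype libraries. The other DNAJA2 gene, ENSDARG00000010745, had 72.5 and 73.4 CPM in longfin and 75.0 and 75.0 CPM in wildtype libraries, a gap of fold change -0.04 (interval -0.24 to 0.16). *dnaja1* had 22.2 and 16.6 CPM against 19.1 and 19.7 CPM. The wildtype libraries of *dnaja1* lay between the longfin ones. The 6 class A genes had fold changes between -0.06 and 0.12. In edgeR 0 of the 6 had an unadjusted p under 0.05, where 9.47% of all tested genes did. A class of 6 genes is too small to compare with that share.

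Class B holds the heat-inducible partner of Hsp70, *dnajb1*, in duplicate. *dnajb1a* had 20.9 and 21.3 CPM in longfin and 21.1 and 19.2 CPM in wildtype libraries, and *dnajb1b* had 17.8 and 17.2 against 19.9 and 15.7 CPM. Both copies overlapped between genotypes, with fold changes of 0.07 (interval -0.21 to 0.34) and -0.02 (interval -0.37 to 0.33). The *dnajb1b* value turned to 0.009 with upper quartile scaling and to 0.02 with library size only. DNAJB11, the ER partner of BiP, had 148 and 144 CPM in longfin and 151 and 143 CPM in wildtype libraries. *dnajb6a*, whose product suppresses protein aggregation, had 43.6 and 40.6 against 39.7 and 38.4 CPM, and the ER membrane gene DNAJB12 (ENSDARG00000039363) 27.3 and 26.4 against 27.0 and 30.4 CPM.

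The lowest fold change of the tested set was that of DNAJB9 (ENSDARG00000016886). DNAJB9 encodes an ER J protein that the unfolded protein response induces and that restrains the stress sensor IRE1. It had 79 and 46 reads in longfin and 86 and 125 in wildtype libraries, or 3.56 and 2.36 against 4.65 and 5.22 CPM. Both longfin libraries were lower, by a fold change of -0.73 (interval -1.34 to -0.12), and the gene did not pass, with an edgeR adjusted p of 0.443 (unadjusted 0.0261). Leaving out 1 library at a time gave fold changes from -1.06 (without longfin replicate 1) to -0.47 (without longfin replicate 2). The other DNAJB9 gene, ENSDARG00000052072, had 3.96 and 3.34 CPM in longfin and 3.51 and 3.38 CPM in wildtype libraries, a fold change of 0.09 (interval -0.45 to 0.63). The difference between the copies was not tested.

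Class C is the largest, with 32 genes that act at many sites, and 30 were tested. DNAJC1, an ER membrane J protein that also binds ribosomes, had 103 and 101 CPM in longfin and 101 and 104 CPM in wildtype libraries. Its fold change was -0.0005 (interval -0.19 to 0.19), and its sign turned with upper quartile scaling (0.03). DNAJC7, which carries TPR repeats and binds Hsp70 and Hsp90, had 98.4 and 88.0 CPM in longfin and 108 and 98.4 CPM in wildtype libraries. The ER genes *dnajc3b* and DNAJC10, a cochaperone and a disulfide reductase, had 88.7 and 96.2 against 99.2 and 101 CPM and 75.1 and 78.2 against 75.2 and 77.8 CPM. The DNAJC7 and *dnajc3b* values were lower in both longfin libraries, with fold changes of -0.15 and -0.12, while DNAJC10 overlapped. DNAJC11 (ENSDARG00000011196), a mitochondrial J protein, had 49.8 and 51.8 against 50.5 and 48.1 CPM. *dnajc18* had 267 and 180 reads, or 12.02 and 9.25 CPM, in longfin and 143 and 183 reads, or 7.73 and 7.64 CPM, in wildtype libraries. Both longfin libraries were higher, by a fold change of 0.47 (interval 0.05 to 0.90) with an edgeR adjusted p of 0.470 (unadjusted 0.0344), and it was 0.27 without longfin replicate 1. The other class C genes had fold changes from -0.27 (DNAJC24) to 0.51 (DNAJC17).

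In the mitochondrial matrix HSPD1 (Hsp60) and HSPE1 (Hsp10) form the chaperonin, and in RefSeq's GRCz12tu gene order *hspd1* and *hspe1* are neighbours. HSPD1 had 164 and 156 CPM in longfin and 161 and 150 CPM in wildtype libraries. HSPE1 had 50.8 and 49.9 against 45.9 and 47.4 CPM. The HSPE1 libraries did not overlap between genotypes and those of HSPD1 did, and the fold changes were 0.11 (interval -0.10 to 0.32) and 0.04 (interval -0.16 to 0.24).

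Small heat shock proteins hold unfolded proteins without ATP, and several are muscle proteins. Of 10 counted genes, 5 were tested and 3 had no read. HSPB1, the human Hsp27, had the highest fold change of all tested members. Its counts were 121 and 54 in longfin and 40 and 24 in wildtype libraries, or 5.45 and 2.78 against 2.16 and 1.00 CPM. Both longfin libraries lay above both wildtype ones, and within each genotype replicate 1 was the higher library. The fold change was 1.44 (interval 0.31 to 2.58), with an edgeR adjusted p of 0.413 (unadjusted 0.0201). It ranged from 0.86 without longfin replicate 1 to 2.05 without wildtype replicate 1. With replicate number as a block, a fit that called 4.32% of all tested genes, HSPB1 was the 1 member called (adjusted p 0.0107), but the labels do not say what a shared number means. Of 12 tested marker genes of the blastema mesenchyme, 9 had fold changes above 0 and 3 below 0 (50.3% of all tested genes below). In 5 both longfin libraries lay above both wildtype libraries (20.0% of all tested genes), and 0 passed in edgeR (0.403%). DESeq2, which called 1.58% of all tested genes, called *msx2b* (0.71 in edgeR, DESeq2 adjusted p 0.027), and the replicate block called 5 of the 12. The 14 counted genes summed to 9489 and 11369 CPM in longfin and 8860 and 10857 CPM in wildtype libraries. Of these sums FN1 (ENSDARG00000006526, fold change -0.03) gave 4717 and 6393 CPM in longfin and 4784 and 6521 CPM in wildtype libraries. The part of the blastema genes in the higher values of HSPB1, HSPA5 and *dnajc18* was not tested.

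HSPB8, which works with BAG3 in selective autophagy, had 12.3 and 10.6 CPM in longfin and 14.0 and 14.9 CPM in wildtype libraries. The longfin libraries were lower, by a fold change of -0.34 with an edgeR adjusted p of 0.528. *hspb11* had 2.12 and 2.72 CPM against 2.43 and 4.01 CPM, with overlap. HSPB7, known from heart and muscle, stood at 1.34 to 2.21 CPM, and HSPB2 and HSPB3, muscle proteins in mammals, had 0 to 3 reads in each library. The 10 skeletal muscle marker genes had a summed level of 34.8 to 40.4 CPM per library, of which TNNT3 (ENSDARG00000068457) gave 27.8 to 31.7 CPM, and 4 of them passed the count filter. For HSPB8, 7 of the 10 markers of the superficial epidermis given beside HSPA8 were also lower in both longfin libraries. So were 3 of 5 tested genes of the leukocyte list and 2 of 6 of the basal epidermis list, where 1 lay above. Over all tested genes the share lower in both longfin libraries was 19.8%. The part of these markers in the HSPB8 and muscle gene values was not tested.

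**Figure D3:**
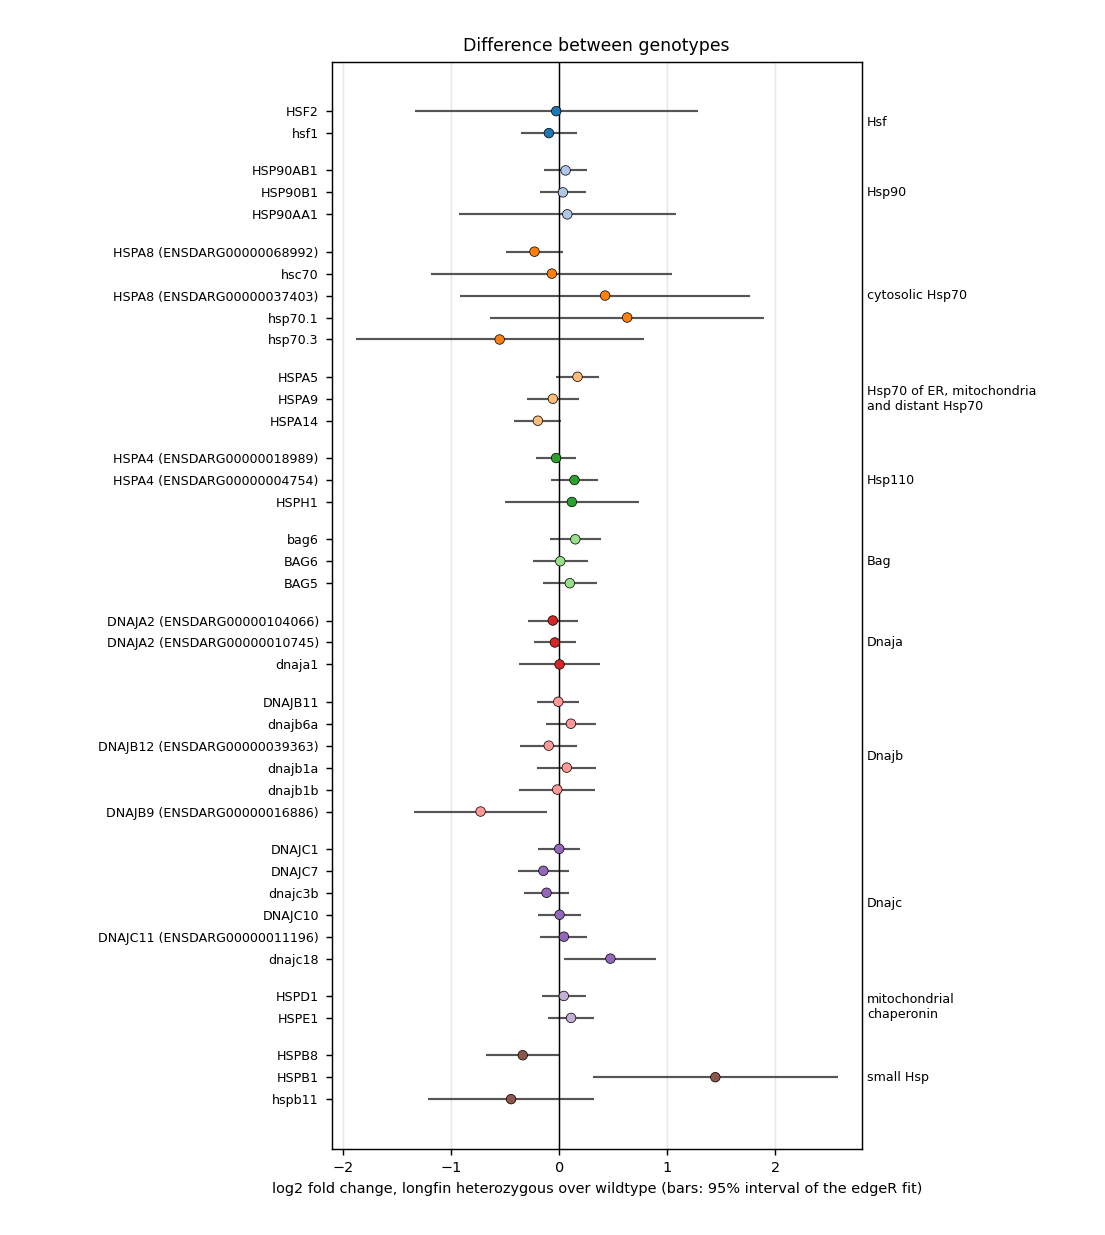
Log2 fold change of longfin over wildtype for the 39 tested genes of the named set, with 95% intervals of the edgeR fit as bars and colours by class. The intervals of HSPB1 (0.31 to 2.58), *dnajc18* (0.05 to 0.90) and DNAJB9 (-1.34 to -0.12) leave out 0 without adjustment for the number of genes, and those of HSF2, HSP90AA1 and the rare Hsp70 genes are wide.

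Other genes of the protein folding system were compared through 6 lists. Their counts stand beside the same shares of all tested genes as above, 0.403% at the adjusted threshold and, for an unadjusted p under 0.05, 3.65% higher and 5.82% lower. Of 14 tested genes of the cytosolic chaperonin and prefoldin, 0 passed the adjusted threshold and 0 had an unadjusted p under 0.05 in edgeR, and the median fold change was 0.04. Their most abundant members, CCT7 and CCT3, had fold changes of 0.02 and -0.02. Of 25 Hsp70 and Hsp90 cochaperones and 13 genes of mitochondrial proteostasis, 0 passed at either level, and the medians were -0.03 and -0.02. The Hsp90 organiser gene STIP1 had 115 and 108 CPM in longfin and 113 and 108 CPM in wildtype libraries, and the mitochondrial protease genes CLPX (ENSDARG00000029063) and AFG3L2 stood at -0.08 and -0.02.

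FKBP5, an immunophilin cochaperone of Hsp90 that glucocorticoids induce, had the highest mean CPM of the cochaperone list over the 4 libraries and stood below STIP1 in both longfin libraries. It had 89.5 and 14.5 CPM in longfin and 370 and 130 CPM in wildtype libraries. The longfin libraries were the lower ones and all 4 libraries were far apart, so that the fold change of -2.26 had an edgeR adjusted p of 0.719. DDIT4, a stress-inducible inhibitor of mTORC1 signalling, had 25.5 and 11.3 CPM against 65.7 and 19.7 CPM, a fold change of -1.19 with an edgeR adjusted p of 0.764. The DDIT4 libraries overlapped between genotypes. With replicate number as a block, a fit that called 4.32% of all tested genes, DDIT4 was called lower in longfin (-1.11, adjusted p 0.00259). The labels do not say what a shared number means. DDIT4 was picked after its values were seen.

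**Figure D4:**
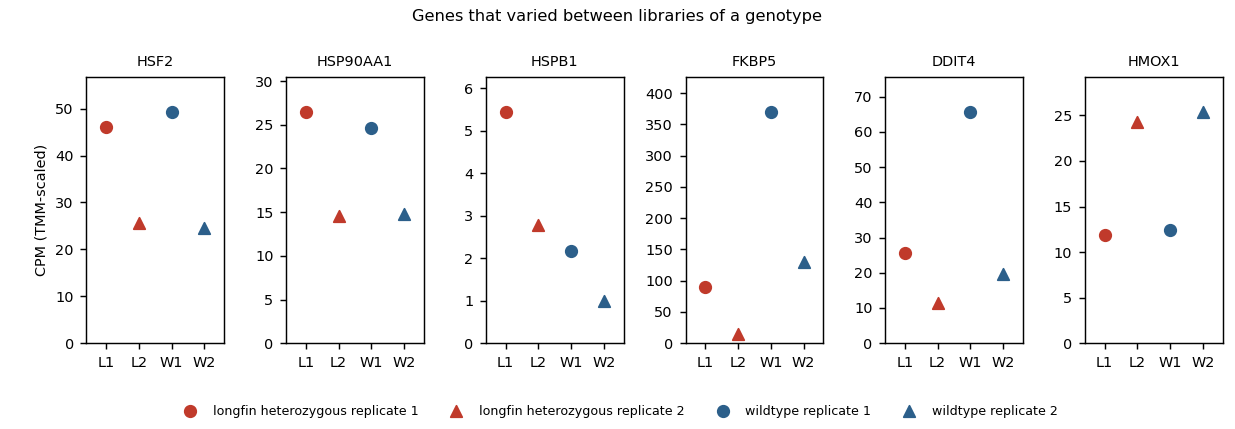
CPM in each library (L1 and L2 longfin heterozygous, W1 and W2 wildtype replicates 1 and 2), 1 panel per gene, each with an axis from 0. The genes were picked because they varied between libraries of a genotype. Others, such as *hsc70*, were higher in replicate 2 of both genotypes and are not shown. All genes but HMOX1 (11.9 and 12.4 against 24.3 and 25.4 CPM) have their higher library in replicate 1 of both genotypes, and the longfin library of the same number is higher for HSPB1 and lower for FKBP5 and DDIT4.

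Of 26 genes of the ER list 0 passed, and 3 higher and 1 lower reached an unadjusted p under 0.05, with PDIA3 and P4HB, the most abundant protein disulfide isomerases, at -0.05 and -0.03. Picked after their values were seen, the unadjusted 4 were the collagen chaperone gene SERPINH1 (ENSDARG00000019949, 0.51), XBP1 (0.24) and DDIT3 (0.29), both transcription factors of the unfolded protein response, and the calreticulin gene *calr3b* (-0.24). The other SERPINH1 gene, ENSDARG00000075954, stood at -0.19. Other transcription factor genes of the same list, *atf4a*, *atf4b* and *atf6*, stood at 0.05, -0.09 and -0.07. Of 20 proteasome and ubiquitin genes, 0 passed and 2, both polyubiquitin genes, reached an unadjusted p under 0.05 (*ubb* at 0.31 and UBB at 0.22), while the most abundant, *ubc*, stood at -0.08. Among 11 other inducible stress genes, 2 passed as higher, ATF3 (fold change 0.71, edgeR adjusted p 0.0482) and GADD45B (ENSDARG00000013576, 1.12 and 0.0322). This list, like the others, was chosen with earlier results of these data known, so its count is no independent support. The most abundant of the list, TXNIP (ENSDARG00000036107) and NFE2L2, stood at 0.34 and -0.39. At an unadjusted p under 0.05 in edgeR, 3 of the 11 were higher, the 2 that passed and TXNIP, and 2 were lower. The lower ones were NFE2L2 and another GADD45B gene, ENSDARG00000027744. That GADD45B gene had a fold change of -0.38 and did not pass (edgeR adjusted p 0.46). The lens and muscle small heat shock genes listed as CRYAB had at most 0.0835 CPM.

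**Figure D5:**
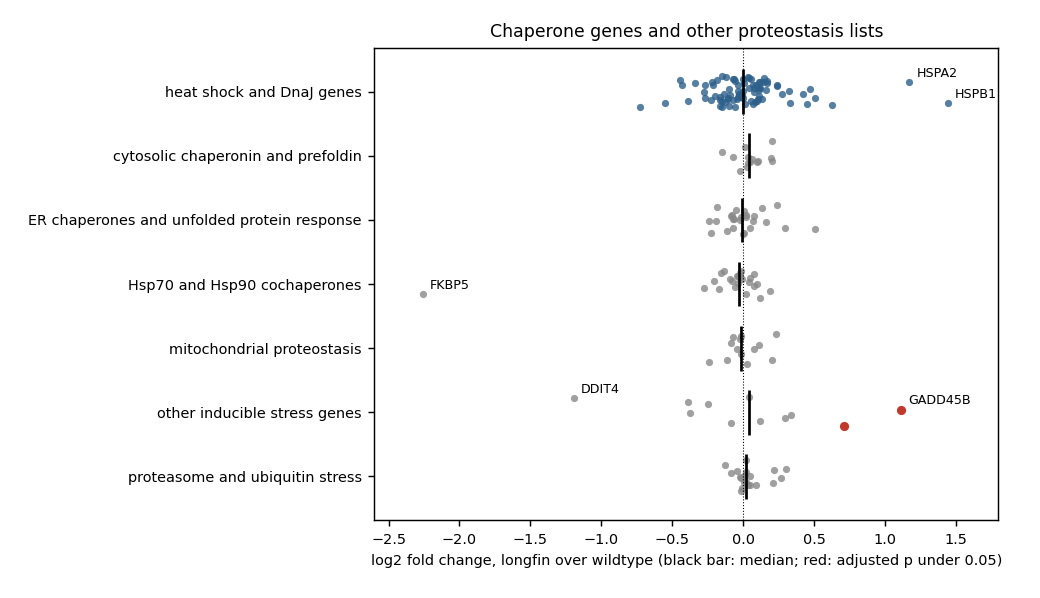
Log2 fold change of longfin over wildtype for the tested chaperone genes (top row) and for 6 lists of related genes, 1 point per gene, with a black bar at each median and red for an adjusted p under 0.05. The medians lie between -0.03 and 0.04, the 2 red points are ATF3 and GADD45B, and FKBP5 (-2.26) is the lowest point.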

How the data were processed

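TopHat2, HTSeq and the build GRCz11 (danRer11) are named in the submitters' processing notes. Tool versions, annotation release, strand setting and overlap mode were not stated, so overlapping and antisense genes are uncertain. Per the labels' protocols, libraries came from a stranded mRNA kit. Each deposited file gives whole-number counts by Ensembl gene without normalization. An unnamed total row and HTSeq's unassigned classes (no feature, 7.78 to 9.31% of HTSeq's tally of genes and unassigned classes) were left out.

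Counts were analysed in R 4.3.3 with edgeR 4.0.16 (filterByExpr with minimum count 10 and total 15, TMM, quasi-likelihood fit with legacy off and robust on, two-sided, no replicate term) on all 4 libraries. Adjustment was by Benjamini-Hochberg across 18366 tested genes. Alternatives were other scalings, other filters, DESeq2 1.42.0, limma 3.58.1 voom, a replicate block and leaving out each library. The code was tested on simulated data. Counting error and 2 libraries per genotype limit precision.

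Symbols came from a gene-name table (29178 of 31901 IDs). Named members were those with an unadjusted p under 0.05 and at least 1 mean CPM, the 3 of highest CPM per class (5 in class C), and the inducible *hsp70*, *hsp90aa1*, *dnajb1* and *hsf* genes. Other members with printed values, such as HSPA2, BAG3 and the other DNAJB9 gene, were chosen after their values were seen. In the related lists the 2 of highest CPM and any gene past the threshold were named. Members and lists were chosen with earlier results of these data known.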

Additional observations from a re-analysis of the deposited data

How the results depend on the processing

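No chaperone gene passed an adjusted p of 0.05 under any scaling, filter, tool or left-out library; with the replicate block 1 did, HSPB1 (1.38, edgeR adjusted p = 0.0107). Same-numbered libraries deviated together (r = 0.311 across 18366 genes, a description), but the labels do not say that a number marks a shared clutch or day, so the block stayed an alternative. The block called 4.32% of all tested genes. In the related lists it called 2 of 26 ER genes, 1 of 20 proteasome and ubiquitin genes, 5 of 11 other inducible stress genes and 0 in the remaining lists. Besides ATF3 and GADD45B (ENSDARG00000013576), which passed without it, these were SERPINH1 (ENSDARG00000019949, adjusted p 0.00022), *calr3b* (0.0417), *ubb* (0.0107), NFE2L2 (0.0148), GADD45B (ENSDARG00000027744, 0.0193) and DDIT4 (0.00259). Calls over all genes were 74, and 219 with library size only, 130 without the low count filter, 291 with DESeq2, 794 with the replicate block and 1 to 163 with 1 library left out. Members higher at an unadjusted p under 0.05 were 2, and 1 with DESeq2, 4 with the replicate block and 0 to 2 with 1 library left out. The lower ones were 1, and 2 with DESeq2's size factors, no filter, a mean count minimum of 50 and limma voom alike, 0 with DESeq2, 6 with the replicate block and 1 to 3 with 1 library left out. For all genes, shares at an unadjusted p under 0.05 were taken in the main fit only (3.65% higher and 5.82% lower). The member counts in the other settings, such as 4 and 6 with the replicate block, have no such share beside them. Whether they differ from those of all genes was not tested. The members' median was 0.026 on upper quartile scaling, 0.0286 on plain library size, -0.0089 with the replicate block and -0.0095 to 0.0098 with 1 library left out. The upper quartile and library size settings moved the median of all genes by a similar amount, to 0.025 and 0.0277.

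Among named members, signs turned mostly for values close to 0 or, with a library left out, for genes whose libraries lay far apart. HSPH1, at 0.12 in the main fit, also turned with a library left out. The cause was not tested. Under upper quartile scaling and under plain library size, the genes that turned were DNAJB11 (0.018 and 0.0229), *dnajb1b* (0.009 and 0.0166), DNAJC1 (0.026 and 0.0286) and HSF2 (0.0021 and 0.024). With limma voom they were *dnaja1* (-0.0076), *dnajb1b* (0.0014) and HSF2 (0.0261). The mean count minimum of 50 turned *dnaja1* (-0.0029) and DNAJC10 (-0.0023), no filter turned DNAJC1 (0.0057), and the replicate block turned *dnaja1* (-0.0133). With 1 library left out the ranges that crossed 0 were -0.0503 to 0.0692 for BAG6, -0.1747 to 0.0483 for DNAJA2 (ENSDARG00000104066), -0.224 to 0.1949 for *dnaja1*, -0.0475 to 0.0316 for DNAJB11, -0.1835 to 0.1578 for *dnajb1b*, -0.0197 to 0.0207 for DNAJC1, -0.0263 to 0.0326 for DNAJC10, -0.5195 to 0.5531 for HSF2, -0.0662 to 0.3677 for HSPH1, -0.7895 to 0.4584 for *hsc70*, -0.1592 to 0.0492 for HSPA9, -0.035 to 0.1073 for HSP90B1, -0.4292 to 0.4828 for HSP90AA1 and -0.0097 to 0.0965 for HSPD1.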

Other observations

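The pattern by replicate number was examined after the values of HSF2 and HSP90AA1 had been seen. In an edgeR quasi-likelihood fit with genotype and replicate number as terms, 565 of 18366 genes (3.08%) differed between replicates 1 and 2 at an adjusted p of 0.05, 392 higher and 173 lower in replicate 1. Of the 83 chaperone genes 2 did (2.41%), a share close to that of all genes. HSF2 was higher in replicate 1 by 0.93 ± 0.09 on the log2 scale (SE, adjusted p = 0.000122) and HSP90AA1 by 0.80 ± 0.11 (adjusted p = 0.00147), each in both genotypes. HSPB1 (1.02) and DNAJC5 (ENSDARG00000004836, 0.36) did not pass, each with an adjusted p = 0.0713. Of 109 tested genes of the related lists, 5 passed. DDIT4 was higher in replicate 1 (1.47, adjusted p = 0.00126), and HMOX1, which encodes the stress-inducible heme oxygenase, was lower (-1.03, adjusted p = 0.000253), with 11.9 and 12.4 CPM in the replicate 1 libraries and 24.3 and 25.4 CPM in the replicate 2 libraries. The other genes that passed were SERPINH1 (ENSDARG00000019949, 0.36, adjusted p = 0.00642, and ENSDARG00000075954, 0.34, adjusted p = 0.0284), higher in replicate 1, and PDIA6 (-0.35, adjusted p = 0.0151), lower. FKBP5 had a difference of 2.03 that did not pass (adjusted p = 0.479). What the replicate number stands for is not given in the labels, and no cause of this pattern was tested.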
